A study of Homo sapiens with 22 samples.

Results

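WDR5 binding in CHP-134 cells was compared between cells given a small molecule for 4 h and cells given the solvent DMSO, over 6 chromatin immunoprecipitation (ChIP-seq) libraries, 3 of each group. Members were chosen by their labels: every WDR5 peak list of this cell line was used, which came to 6 of the 16 libraries with a peak list and to 14709 of 94408 peaks. CHP-134 is a human neuroblastoma line with amplified MYCN, the gene of the transcription factor N-MYC. It is 1 established line in culture, and the labels do not say whether the replicates came from separate cultures. The study's methods give its ChIP-seq experiments as independent repeats, without describing the libraries of compound-treated cells, so the spread between replicates may be partly technical. Each library pooled 3 immunoprecipitations. The compound is named C38b in the sample titles, 419C91 as the agent and C91 (419) in the treatment protocol, so its identity is not settled by the labels, and its dose is not stated there. DMSO is given as 0.0005% in one field and 0.005% in another. The remaining libraries held N-MYC peaks of the same cells and N-MYC or WDR5 peaks of IMR-32, an untreated second neuroblastoma line.

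WDR5 is a WD-repeat protein shaped like a ring, with an arginine-binding pocket (the WIN site) on one face and a second surface, the WBM site, on the other. It is a subunit of the MLL and SET1 histone methyltransferase complexes and of the NSL acetyltransferase complex, and the WBM site binds MYC proteins. In many cell types WDR5 sits near the starts of genes for ribosomal proteins and translation factors. MYC proteins bind with their partner MAX to the E-box CACGTG, and the MiT/TFE factors, such as TFEB, bind the same core flanked by T or A (TCACGTGA) at the promoters of lysosomal genes.

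In these lists the ribosomal protein sites that ranked highest in DMSO ranked lower or were missing under the compound, while a set of promoters with E-boxes stood at the top of all 3 compound lists. Sequences at or beside the summits of some promoters among the 15 highest sites of compound replicates 1 and 3 are shown to let this E-box be seen. They are a selection. Windows taken at STMN1 and FAM118B, also among the 15, held CACGTG with no T before it and no A after it. At both sites TCACGTG lay elsewhere within 100 bp of the summit. Capitals mark CACGTG, and a T before it or an A after it where present. Letters are from the plus strand of GRCh37 (hg19), 5′ to 3′.

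GET4: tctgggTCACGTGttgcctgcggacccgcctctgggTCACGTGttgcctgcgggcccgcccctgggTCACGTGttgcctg
LAMP1: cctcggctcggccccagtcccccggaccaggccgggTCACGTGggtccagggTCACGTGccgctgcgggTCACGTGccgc
ATP6V0D1-DT: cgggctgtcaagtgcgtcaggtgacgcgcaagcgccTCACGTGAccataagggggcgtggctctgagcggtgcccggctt
UBE2Q1: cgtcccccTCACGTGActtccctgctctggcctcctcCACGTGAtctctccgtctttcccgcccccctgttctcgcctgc
CLCN6: cccggggccagTCACGTGAggcgcagatcc
AMDHD2: gggcgcggcggTCACGTGgcgcgccgcttc
WASHC2C: tgcgggttctgTCACGTGAcatcaggtcac

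The GET4 window is chr7:915975-916054 and lies upstream of the gene. The LAMP1 window is chr13:113951325-113951404, also upstream. The ATP6V0D1-DT window, chr16:67515077-67515156, lies between ATP6V0D1 and its divergent noncoding transcript. The UBE2Q1 window is chr1:154531269-154531348 and lies upstream of the gene. The CLCN6 window is chr1:11866239-11866268, beside a summit in the noncoding part of an exon. The AMDHD2 and WASHC2C windows are chr16:2570316-2570345 and chr10:46222628-46222657, at the starts of their genes. For comparison, 5 of the highest-ranking DMSO sites are shown around their DMSO summit, or around their E-box where they have one.

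RPS3: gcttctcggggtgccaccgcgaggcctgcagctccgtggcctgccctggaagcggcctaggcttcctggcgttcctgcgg
CCT7: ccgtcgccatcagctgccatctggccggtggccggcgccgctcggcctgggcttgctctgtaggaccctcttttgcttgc
RPL5: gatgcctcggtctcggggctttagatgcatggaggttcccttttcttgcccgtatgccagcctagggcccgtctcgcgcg
RPL7A: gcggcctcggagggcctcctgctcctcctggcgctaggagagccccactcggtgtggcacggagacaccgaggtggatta
SNHG15: atggtcaggcaaCACGTGgggcccaggatg

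These windows are chr11:75110674-75110753 (RPS3), chr2:73461533-73461612 (CCT7), chr1:93297682-93297761 (RPL5) and chr9:136215172-136215251 (RPL7A), each in an intron near the start of its gene. The SNHG15 window is chr7:45026136-45026165. It holds the E-box core with no T before it and no A after it.

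The 6 lists differed greatly in length. The DMSO libraries listed 4891, 1758 and 1671 WDR5 peaks in replicates 1, 2 and 3, and the compound libraries listed 5973, 15 and 401. The groups overlapped, because compound replicate 1 was the longest list of all, and the means of 2773 ± 1834 (SD, n = 3) and 2130 ± 3334 (SD, n = 3) did not differ beyond the spread (two-sided exact permutation test over libraries, p = 0.6, with 0.1 the smallest value that 3 against 3 allows). The peak files give no read depth, so a shorter list cannot be told apart from a shallower library. Among the peaks with a −log10 q-value of at least 10, a stricter level taken after the lists were seen, the DMSO libraries listed 903, 511 and 505 and the compound libraries 225, 4 and 67. At that level the groups did not overlap (exact permutation test, p = 0.1, the smallest possible). The median peak was also narrower under the compound, at 370, 380 and 366 bp against 448, 449 and 430 bp in DMSO (exact permutation test, p = 0.1).

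**Figure D1:**
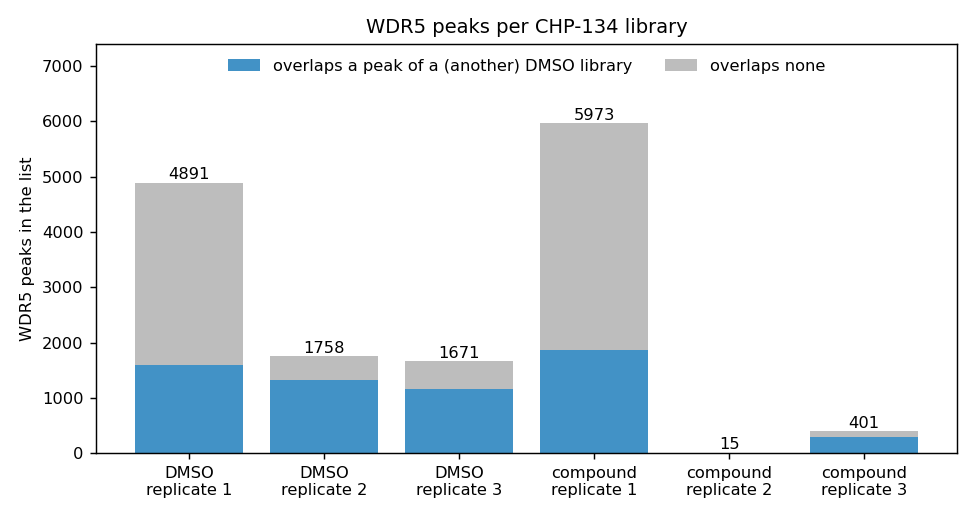
Number of WDR5 peaks (vertical axis) in each of the 6 CHP-134 libraries. Blue marks peaks that overlap by at least 1 bp a peak of a DMSO library (for DMSO libraries, of another one) and grey those that overlap none. Compound replicate 1 is the longest list and mostly grey, while compound replicate 2 holds 15 peaks.

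WDR5 sites of IMR-32 cells gave a reference that neither group had made. Of the 993 regions with a peak in both IMR-32 libraries, the DMSO libraries listed 73.2%, 59.1% and 55.3%, and the compound libraries listed 34.3%, 1.31% and 12.1%. Every compound library listed fewer than every DMSO library, with means of 62.5% ± 9.44 and 15.9% ± 16.8 (SD, n = 3 each, exact permutation test, p = 0.1). Compound replicate 1 listed fewer of these sites than DMSO replicates 2 and 3 although its list was over 3 times as long. The number of protein-coding genes with a WDR5 peak within 1 kb of a transcription start site (TSS) was 3663, 1586 and 1392 in DMSO and 3100, 19 and 376 under the compound (exact permutation test, p = 0.5). As shares of all 20136 protein-coding genes these were 18.2%, 7.88% and 6.91% in DMSO against 15.4%, 0.0944% and 1.87%.

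Which DMSO sites were still listed was read from the 1646 regions with a WDR5 peak in at least 2 DMSO libraries. Compound replicate 1 listed 773 of them, or 47% (exact Clopper-Pearson 95% interval 44.5 to 49.4, counting error only, as for all intervals here). Replicate 2 listed 14, or 0.851% (0.466 to 1.42), and replicate 3 listed 224, or 13.6% (11.99 to 15.4). Of the 1646 sites, 824 were in no compound list, 646 in 1, 163 in 2 and 13 in all 3. A DMSO library left out of the reference served as the measure of how often a site recurs. DMSO replicate 1 listed 93.5% of the 816 sites shared by the other two, replicate 2 listed 69.7% of 1106 and replicate 3 listed 61.4% of 1258. Over the same references compound replicate 1 listed 48.0%, 49.5% and 47.3%, replicate 3 listed 20.1%, 17.6% and 14.1%, and replicate 2 listed no more than 1.72%. Compound replicate 1, the longest list, thus listed fewer of these sites than any DMSO library did.

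Recurrence was compared with rank in DMSO. Peaks are ranked below by percentile of the authors' fold over background within their own list, 100 being the highest, since folds are not comparable between lists. Over quintiles of the mean DMSO percentile, from lowest to highest, compound replicate 1 listed 46.1%, 40.7%, 48.3%, 46.8% and 52.9% of the sites. Replicate 3 listed 9.39%, 9.42%, 10.9%, 17.6% and 20.7%, and all 14 sites of replicate 2 were in the highest quintile. Of the 100 highest DMSO sites, 80 were listed by replicate 1, 6 by replicate 2 and 34 by replicate 3. The median DMSO percentile of all 100, which DMSO ranks had chosen, was 97.8. The sites listed by replicates 1 and 3 had DMSO medians of 98.1 and 97.9. Their medians were 68.2 in compound replicate 1 and 51.7 in replicate 3. A percentile depends on list length, and in a list of 401 peaks the same rank gives a lower percentile than in a longer one. Across the sites listed, the Spearman correlation of the mean DMSO percentile with the percentile in compound replicate 1 was 0.33 over 773 sites, and 0.22 over 224 sites with replicate 3. Between DMSO libraries it was 0.65 (replicates 1 and 2), 0.67 (replicates 1 and 3) and 0.71 (replicates 2 and 3). These describe sites within libraries, which are not independent replicates.

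Ribosomal protein genes made up much of the top of the DMSO lists and stood lower in the compound lists. Of 79 such genes, encoding the large and small subunits of the cytoplasmic ribosome, 47 had a WDR5 peak within 1 kb of a TSS in all 3 DMSO libraries. In each DMSO library 44 of these 47 stood above the 90th percentile, with medians of 99.0, 97.3 and 97.7. Compound replicate 1 listed 41 of the 47, at a median percentile of 62.4 and with 9 above the 90th. Replicate 3 listed 15, at a median of 38.9 and with none above the 90th, and replicate 2 listed 3, at a median of 23.3. In no compound library were 6 of the 47. List length sets part of this, since only 41 peaks of replicate 3 and 2 of replicate 2 stood above the 90th percentile. With equal numbers of peaks, a count added after the lists were seen, 43, 43 and 44 of the 79 genes had a peak among the 100 of highest fold in the DMSO libraries. Among the 100 of highest fold, ties included, it was 2 in each of compound replicates 1 and 3, and 3 genes were in the whole list of replicate 2.

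RPS3, a protein of the small subunit, had the highest mean DMSO rank of any site, with percentiles of 99.6, 99.9 and 99.7. It was at 80.3 in compound replicate 1 and not listed in the other two. RPL31, of the large subunit, stood at 98.9, 99.5 and 98.7 in DMSO and at 11.9 in compound replicate 1. RPL5, which binds 5S rRNA, stood at 99.4, 98.5 and 99.9 in DMSO and was in no compound list. It led the 5 highest-ranking DMSO sites that no compound library listed, followed by RPL29, UBAC2-AS1, a site within 1 kb of RPL26 and RPL18. A few ribosomal protein sites kept a high rank in compound replicate 1, among them RPL6 at 99.5, which stood at 74.8 in replicate 3.

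Genes of translation, protein folding and splicing at the top of DMSO showed the same spread. CCT7, a subunit of the CCT chaperonin that folds actin and tubulin, was at 99.2, 99.9 and 98.4 in DMSO, at 53.9 in compound replicate 1 and unlisted in the others. NACA, of the nascent chain-associated complex at the ribosome exit, stood at 99.8, 98.7 and 99.2 in DMSO and at 62.5 in compound replicate 1. SNRPB, a core protein of spliceosomal snRNPs, was at 99.5, 97.8 and 99.8 in DMSO and at 12.4 in compound replicate 1. SERBP1, an mRNA-binding protein that associates with ribosomes, kept its rank in replicate 1, with 99.9, 99.7 and 97.6 in DMSO and 99.1 there. It was unlisted in replicates 2 and 3. Others also stayed high in replicate 1, among them RNPS1 (99.3) and EIF4G3 (98.8), which stood at 51.4 and 79.7 in replicate 3. Of the 20 highest DMSO sites, 19 were in compound replicate 1 (percentiles from 11.9 to 99.4, median 73.1), 2 in replicate 2 and 4 in replicate 3.

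**Figure D2:**
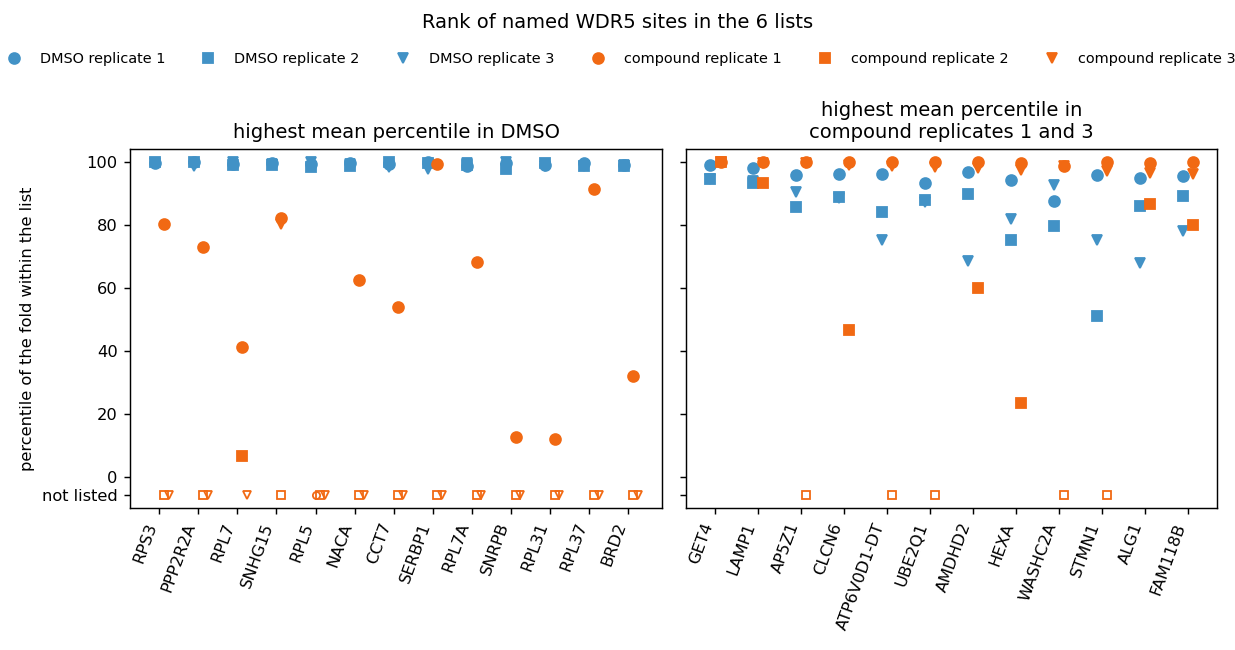
Percentile of the fold within each list (vertical axis) for the 13 sites with the highest mean percentile in DMSO (left) and for 12 of those highest in compound replicates 1 and 3 that DMSO libraries also listed (right). Blue symbols are DMSO libraries, orange symbols compound libraries, and open symbols at the bottom mark sites a library did not list. On the left the blue symbols sit near 100 and the orange ones spread from 6.67 to 99.1 or are missing. On the right the filled circles and triangles of the compound sit at the top, above the DMSO values of the same site, which range from 51.1 to 98.9.

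The loci that the study used for quantitative PCR show the same range site by site. SNHG15 (a snoRNA host gene), RNPS1 (exon junction complex), RPL35, RPS6, RPL17, EIF4G3 (translation initiation) and CCT7 are 7 of its conserved WDR5-bound loci. All 7 were listed by each DMSO library, between percentiles 95.2 and 99.9. Compound replicate 1 listed all 7, between 21.9 (RPL35) and 99.3 (RNPS1), with a median of 80.3. Replicate 3 listed 4, between 49.9 and 80.3, and replicate 2 listed none. Of 4 loci that the study treats as not bound by WDR5, DMSO replicate 1 listed METTL1 (a tRNA methyltransferase) at 10.3 and RPS12 at 71.2, and the other DMSO libraries listed none. Compound replicate 1 listed METTL1 at 9.85, RPS12 at 53.1 and SURF6, a ribosome biogenesis factor, at 44.2.

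The top of each compound list was held by other promoters. The 15 peaks of compound replicate 2 were all within 1 kb of a TSS, and 14 of them overlapped regions of all 3 DMSO libraries and of compound replicate 1. They lay at GET4 (which helps insert tail-anchored proteins), LAMP1 (a lysosomal membrane protein), ALG1 (glycan assembly), FAM118B, TRMO, KAT5 (the TIP60 acetyltransferase), AMDHD2 (amino sugar metabolism), CLCN6 (a late endosomal chloride exchanger), HEXA (lysosomal hexosaminidase), CSNK1D (casein kinase 1 delta), RPL23 and RPL7. The others on DMSO sites count and are not reported on their own. The peak outside all DMSO lists was at UBE2L3, a ubiquitin-conjugating enzyme, at percentile 40 in replicate 2 and 75.0 in replicate 1. Of the 13 regions in all 6 lists, the 5 highest in DMSO included RPL23, CSNK1D and GET4. Replicate 2 put GET4, LAMP1, ALG1 and FAM118B highest, at 100, 93.3, 86.7 and 80, and RPL7 lowest at 6.67.

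GET4 had the highest fold in all 3 compound lists, and stood at 98.9, 94.5 and 94.7 in DMSO. LAMP1 was at 99.98, 93.3 and 99.8 in the compound libraries and at 98.0, 93.3 and 94.0 in DMSO. AP5Z1, a subunit of the AP-5 adaptor complex of late endosomes, stood at 99.9 and 99.5 in compound replicates 1 and 3 and at 95.7, 85.7 and 90.5 in DMSO. The site between ATP6V0D1, a subunit of the lysosomal proton pump, and ATP6V0D1-DT was at 99.9 and 98.8 under the compound and at 96.3, 84.1 and 75.1 in DMSO. HEXA stood at 94.3, 75 and 81.7 in DMSO and at 99.6 and 97.5 in compound replicates 1 and 3. STMN1, encoding the microtubule regulator stathmin, stood at 99.8 and 97.0 there and at 95.7, 51.1 and 75.2 in DMSO. The other sites among the 15 highest included CLCN6, UBE2Q1, AMDHD2, WASHC2A and WASHC2C (paralogous subunits of the WASH complex, whose reads can be shared), ALG1, FAM118B and an intronic site of LINC00472. Of these 15, each DMSO library listed 13, at median percentiles of 95.7, 86.1 and 87.1.

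An E-box marked most of these summits. Among the 100 peaks of each list with the highest −log10 q-value, CACGTG lay within 100 bp of the summit in 6%, 5% and 4% of DMSO peaks and in 61% and 66% of those of compound replicates 1 and 3. For replicate 2 it was 60% of its 15 peaks (exact interval 32.3 to 83.7). Every compound library was above every DMSO library, with means of 62.3% ± 3.21 and 5.00% ± 1.00 (SD, n = 3 each, exact permutation test, p = 0.1, the smallest possible). This comparison was chosen after the lists had been seen. In IMR-32, the 100 strongest WDR5 peaks held CACGTG in 2% and 1%. Of 56140 windows of the same length (201 bp) centred on protein-coding TSSs, 5.43% held CACGTG and 3.22% held TCACGTG. With lists cut to the 401 strongest peaks, the length of compound replicate 3, CACGTG was at 21.2%, 16.5% and 16.7% of DMSO peaks and at 31.7% and 30.9% of those of compound replicates 1 and 3. Over whole lists the shares were 14.9%, 18.5% and 18.4% in DMSO against 8.84%, 60% and 30.9%, and the groups overlapped (exact permutation test, p = 0.4).

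**Figure D3:**
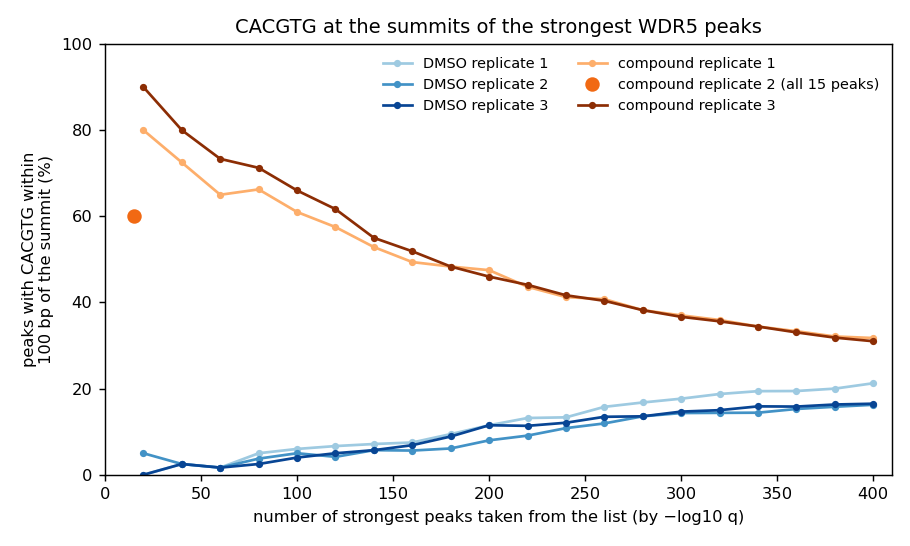
Share of WDR5 peaks with CACGTG within 100 bp of the summit (vertical axis) among the strongest peaks of each list, taken in growing number by −log10 q (horizontal axis). Blue lines are DMSO libraries, orange and brown lines compound replicates 1 and 3, and the single orange point all 15 peaks of compound replicate 2. The compound lines start at 80% and 90% and fall with list length, the DMSO lines start at or below 5% and rise.

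The flanking base differed from that at N-MYC peaks. TCACGTG (searched on both strands, and holding CACGTG within it) was present in 55%, 53.3% and 62% of the strongest peaks of the compound libraries, which is 88.9% to 93.9% of their peaks with an E-box. In the 100 strongest N-MYC peaks of the same cells CACGTG was present in 71% to 79% in DMSO and in 72% to 77% under the compound. TCACGTG was in 20% to 32% and 18% to 22% of those N-MYC peaks, or 23.4% to 40.5% of those with an E-box. Among the 401 strongest WDR5 peaks, it was in 85.0% and 87.1% of the peaks with an E-box in compound replicates 1 and 3. The shares were 65.9%, 63.6% and 59.7% in the DMSO libraries, and 87.9% and 82.4% in the WDR5 libraries of untreated IMR-32 cells. A flanking T was thus not particular to the compound. The 8-base palindrome TCACGTGA was in 26% and 37% of the strongest peaks of compound replicates 1 and 3, in 1% of those of each DMSO WDR5 library and in 0.901% of TSS windows. More than 1 CACGTG lay in the window of 37%, 46.7% and 44% of the strongest compound peaks and of 3%, 2% and 2% of those in DMSO. GET4 had 7 within 100 bp of the summit in compound replicate 1, and LAMP1 and AMDHD2 had 4 each. A match of letters describes the sequence and does not show which protein was there.

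The same split appeared among the 1646 DMSO sites, a set that the compound lists had no part in defining, though this comparison too was chosen after the lists had been seen. A DMSO summit with TCACGTG within 100 bp occurred at 209 sites. Of these, compound replicate 1 listed 75.6% (69.2 to 81.3), replicate 2 listed 4.31% (1.99 to 8.02) and replicate 3 listed 41.6% (34.9 to 48.6). Of the 1437 sites without TCACGTG the shares were 42.8% (40.2 to 45.4), 0.348% (0.113 to 0.810) and 9.53% (8.06 to 11.2). Sites with CACGTG but no flanking T resembled the latter. Of 151, replicate 1 listed 42.4% and replicate 3 listed 6.62%. Replicate 2 listed none, a count of 0, which allows up to 2.41% by the exact interval. SNHG15, with 2 CACGTG and no flanking T, was an exception, listed by replicates 1 and 3 at 82.0 and 80.3. Where 2 or more CACGTG lay near the summit (83 sites), replicates 1 and 3 listed 78.3% and 62.7%. The sites with and without TCACGTG had similar median DMSO percentiles, at 57.4 and 55.5. Once listed, those with TCACGTG stood at median percentiles of 75.6 in compound replicate 1 and 78.1 in replicate 3, and those without at 52.7 and 44.1.

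Sites with an E-box were listed more often in each quintile of DMSO rank, though not always beyond counting error. In the highest quintile, sites with CACGTG were listed by compound replicate 1 in 64.7% of 51 and by replicate 3 in 47.1%, against 50.7% and 15.8% of 278 without it. In the next, the shares were 64.4% and 40.2% with CACGTG and 40.5% and 9.504% without. In the lowest they were 54.3% and 12.9% against 43.8% and 8.46%. The exact intervals of sites with and without it overlapped for both libraries in the lowest quintile, for replicate 1 in the highest (50.1 to 77.6 against 44.7 to 56.7) and for replicate 3 in the middle one (11.3 to 30.1 against 5.23 to 12.5). N-MYC occupancy also went with recurrence: of the 1437 sites that overlapped an N-MYC region of at least 2 DMSO libraries, replicates 1 and 3 listed 50.5% and 15.1%, and of the other sites, by coincidence again 209, they listed 22.5% and 3.35%. Sites shared with IMR-32 WDR5 peaks (619) were listed at 48.1% and 20.2%, and the others (1027) at 46.3% and 9.64%.

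**Figure D4:**
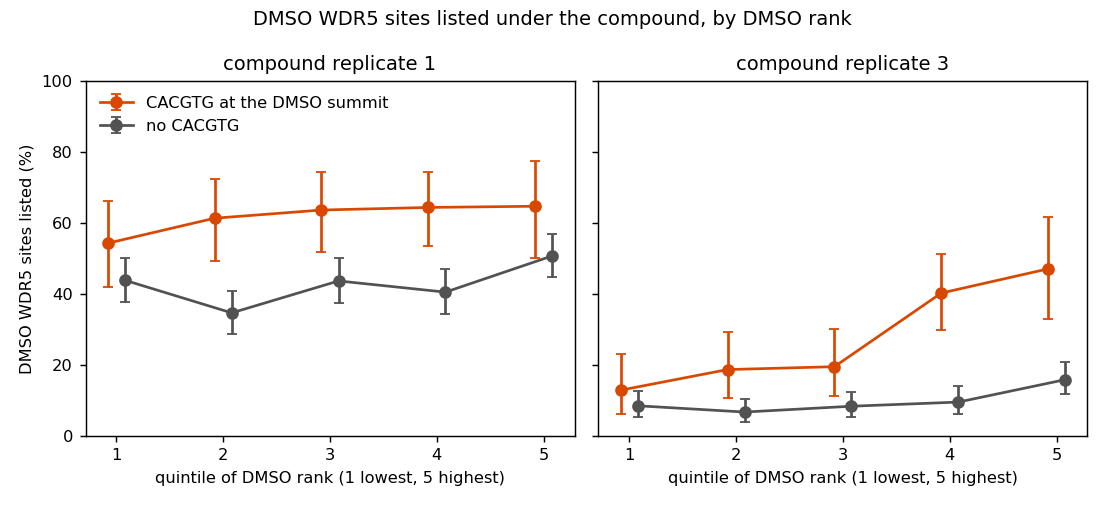
Share of the 1646 DMSO WDR5 sites listed by compound replicate 1 (left) and replicate 3 (right), by quintile of the mean DMSO percentile (horizontal axis) and by whether CACGTG lay within 100 bp of the DMSO summit. Points are shares and bars exact 95% intervals. Sites with CACGTG (orange) lie above those without (grey) in each quintile, from 54.3% to 64.7% against 34.6% to 50.7% in replicate 1.

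The other motifs searched differed less at the top of the lists. TGACG, the core of CREB-type sites, was within 100 bp of 10%, 11% and 10% of the strongest DMSO summits and of 32%, 26.7% and 39% of those of the compound, against 20.9% of TSS windows, and it can share bases with an adjoining TCACGTGA. CCGGAA, an ETS core, was at 10%, 14% and 9% in DMSO and at 20%, 20% and 15% under the compound, against 17.1% of TSS windows. GGGCGG, the GC box, was at 43%, 42% and 42% against 45%, 53.3% and 54%. CCAAT stood at 15%, 16% and 12% against 21%, 13.3% and 25%. The E-box was thus the motif with the widest gap between the groups among those searched.

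Lysosomal genes, a list of 80 written after the top sites had been seen and so no independent support, showed how far the top sites extend. The DMSO libraries listed 39, 19 and 15 of them and the compound libraries 34, 2 and 14. As shares of the list these were 48.75%, 23.75% and 18.75% in DMSO and 42.5%, 2.5% and 17.5% under the compound. Among all protein-coding genes the shares were 18.2%, 7.88% and 6.91% in DMSO and 15.4%, 0.0944% and 1.87% under the compound. The list thus lay above the share of all genes in both groups. Over all listed members the median percentiles were 75.7, 43.1 and 61.9 in DMSO and 75.2, 58.3 and 85.8 under the compound, so the list as a whole did not stand higher in compound replicate 1 than in DMSO replicate 1. Among the 100 peaks of highest fold, lysosomal genes were 2, 0 and 0 in DMSO and 9 and 8 in compound replicates 1 and 3. Of the 9 in all 3 DMSO libraries, the median percentiles were 94.3, 75 and 71.1 in DMSO, 99.5 in compound replicate 1 (8 listed) and 95.01 in replicate 3 (7 listed). CLCN7, the lysosomal chloride exchanger, stood at 86.8, 89.5 and 30.6 in DMSO and at 99.4 and 91.0 in compound replicates 1 and 3. GALNS, a lysosomal sulfatase, was at 88.2, 39.2 and 61.9 against 94.9 and 95.01. RRAGC, a Rag GTPase that recruits mTORC1 to lysosomes, was at 98.2, 94.1 and 93.6 in DMSO and at 98.6 and 94.0 under the compound. Other members stood lower. MAP1LC3B, an autophagosome protein, was at 49.4 and 59.2 in DMSO replicates 2 and 3 and at 18.4 and 27.9 in compound replicates 1 and 3. MCOLN1, a lysosomal cation channel, was at 80.2 and 73.5 in DMSO replicates 1 and 2 and at 99.5 and 12.6 in compound replicates 1 and 3. PPT1, a lysosomal thioesterase in all 3 DMSO lists, was in no compound list.

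The remaining gene lists were read against the share of all protein-coding genes given above, 15.4% in compound replicate 1 and 1.87% in replicate 3. In replicate 1 the exact intervals held that share for mitochondrial ribosomal (19.7%), ribosome biogenesis (26%), CCT (25%), WDR5 complex (32%) and HOX genes (15.4%). In replicate 3 only the intervals of spliceosome genes (6.10%) and snoRNA hosts (15%) lay above it. Mitochondrial ribosomal protein genes (76) were listed 17, 12 and 10 times in DMSO and 15, 0 and 3 times under the compound. Spliceosome genes (82) were listed 33, 19 and 22 times against 33, 0 and 5, translation factors (43) 24, 14 and 13 times against 16, 0 and 3, and ribosome biogenesis genes (50) 17, 10 and 7 times against 13, 0 and 0. Of 8 CCT chaperonin genes 7, 2 and 3 were listed in DMSO and 2, 0 and 0 under the compound. DNA repair genes (89) were listed 49, 24 and 17 times against 27, 0 and 2, and cell cycle genes (83) 34, 17 and 17 times against 27, 0 and 3. Genes that host snoRNAs (20) gave 12, 8 and 8 against 11, 0 and 3, with GAS5 at 98.9, 98.0 and 99.3 in DMSO and at 84.3 and 68.3 in compound replicates 1 and 3. Among 25 genes of WDR5's own complexes, 13, 6 and 2 were listed in DMSO and 8, 0 and 2 under the compound. DPY30, a core subunit of the MLL complexes, was at 98.3, 93.9 and 95.4 in DMSO and at 40.1 in compound replicate 1, while KMT2A, the MLL1 methyltransferase, was listed only by compound replicates 1 and 3, at 64.2 and 74.6. HOX genes (39) gave 6, 4 and 2 against 6, 0 and 3. Their DMSO shares of 15.4%, 10.3% and 5.13% were near the 18.2%, 7.88% and 6.91% of all protein-coding genes. In DMSO replicate 1 the interval of mitochondrial ribosomal genes (22.4%) also held the share of all genes, and those of the other lists here lay above it.

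Of 24 adrenergic neuroblastoma transcription factors, compound replicate 1 listed 6 and the DMSO libraries 3, 0 and 1. The 6 are 25% of the list (9.77 to 46.7), an interval that holds the 15.4% of all protein-coding genes in that library. GATA3 (19.6), HAND1 (13.4), SATB1 (31.7) and SOX11 (39.1) were among those with a peak there and in no DMSO library, and none of the list was in compound replicates 2 and 3. These percentiles were in the lower or middle range of that list.

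New peaks were mostly those of compound replicate 1. In that library 4103 peaks, or 68.7% (67.5 to 69.9), overlapped no DMSO WDR5 peak, in replicate 2 there was 1, and in replicate 3 there were 97, or 24.2% (20.1 to 28.7). Only 23 of the 4103 overlapped a peak of another compound library. In DMSO, 67.2%, 25.0% and 29.9% of the peaks of replicates 1, 2 and 3 were in no other DMSO library. These references differ, since compound peaks were set against every DMSO list and DMSO peaks only against the others of their group. Within its own group, compound replicate 1 shared 3.85% of its peaks with replicate 3 and 0.251% with replicate 2. The place of the peaks outside the reference also differed. Of the new peaks of compound replicate 1, 37% (35.5 to 38.5) lay within 1 kb of a TSS and 45.9% (44.4 to 47.4) over 10 kb from one. Of the 3288 peaks of DMSO replicate 1 alone, 69.8% (68.2 to 71.3) lay within 1 kb and 19.4% over 10 kb away. Peaks of compound replicate 1 on a DMSO peak lay within 1 kb in 84.9%.

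**Figure D5:**
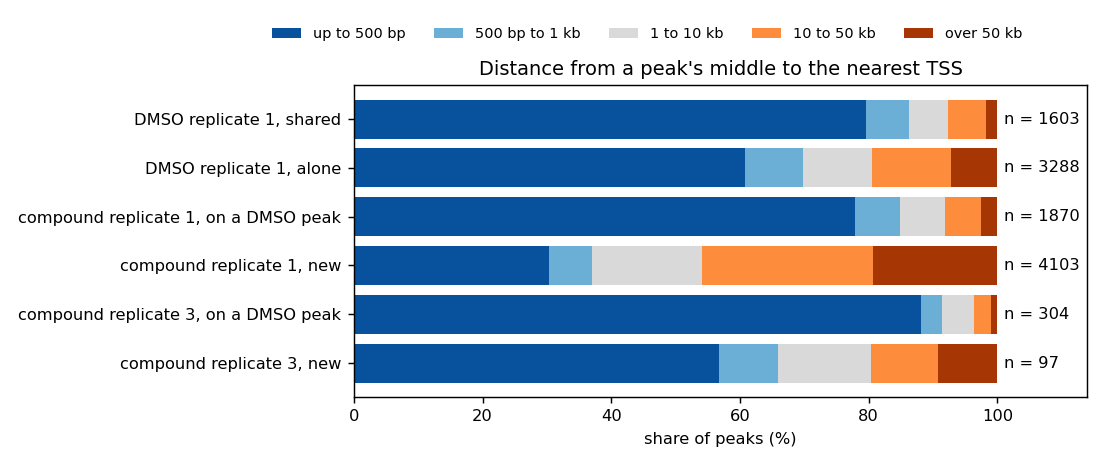
Shares of peaks (horizontal axis) by distance from the peak's middle to the nearest TSS, for peaks of DMSO replicate 1 shared with another DMSO library or alone, and for peaks of compound replicates 1 and 3 on a DMSO WDR5 peak or new. The new peaks of compound replicate 1 have the shortest dark blue bar (30.3% within 500 bp) and the longest orange and brown bars.

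These new peaks also shared less with N-MYC. Of the 4103, 26.1% (24.8 to 27.5) overlapped an N-MYC region of at least 2 DMSO libraries, against 83.9% of the peaks of that library on a DMSO WDR5 peak and 61.2% of those of DMSO replicate 1 alone. CACGTG lay at 4.44% of their summits, against 18.5% of the peaks on DMSO sites, and 0.487% overlapped an IMR-32 WDR5 site. The new peaks spread over the whole range of ranks, with a median percentile of 48.2 and 291 above the 90th. Those with a TSS within 1 kb were 1260 at protein-coding and 258 at long noncoding RNA genes. Of the 97 new peaks of replicate 3, 66.0% (55.7 to 75.3) lay within 1 kb of a TSS and 53.6% overlapped an N-MYC region.

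As a whole library, compound replicate 1 shared 28.8% of its peaks with DMSO WDR5 replicate 1 and 51.6% with DMSO N-MYC replicate 1. DMSO WDR5 replicate 1 shared 78.2% of its peaks with that N-MYC list. The N-MYC list was the longer reference, which raises such a share. DMSO N-MYC replicate 3 alone overlapped 9835 of its peaks, whereas DMSO WDR5 replicate 1 held 4891 peaks in all. The share of all peaks within 1 kb of a TSS was 75.2%, 84.6% and 77.4% in DMSO and 52.0%, 100% and 85.3% under the compound, where the compound libraries lay on both sides of the DMSO range (exact permutation test, p = 1). The share overlapping N-MYC regions was 69.7%, 82.9% and 75.7% against 44.2%, 93.3% and 84.5% (exact permutation test, p = 1). This rested on the overlap rule: with an overlap of at least 50% of both peaks, the group means were 36.8% in DMSO and 23.4% under the compound (exact permutation test, p = 0.1, the smallest possible).

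Compound replicates 1 and 3 shared 21 regions that no DMSO library listed. Among the highest were an intronic site of LINC00472 at chr6:72112911-72113662 (99.4 and 95.8), an intronic site of TBC1D5 at chr3:17443284-17443987 (99.9 and 90.5), OSBPL6, an oxysterol-binding protein gene (94.4 and 85.5), and CCDC59 (96.8 and 81.4). The LINC00472 and TBC1D5 sites lay 16547 and 4577 bp from the nearest TSS and overlapped no N-MYC peak in any CHP-134 library, while OSBPL6 overlapped one in all 6. No CACGTG lay within 100 bp of these 4 summits.

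Of the new peaks seen in replicate 1 alone, the highest was 36971 bp from the nearest TSS, that of CNTNAP2-AS1, at percentile 99.2. It was followed by PRKAR2B (regulatory subunit of protein kinase A, 99.0), an intronic site of FAM184A (98.9), an intronic site of GPATCH2 and ANKS1B (98.7 each). With a protein-coding TSS within 1 kb the highest were PRKAR2B, ANKS1B, GPR19 (98.5), PDHX (of the pyruvate dehydrogenase complex, 98.4) and PSMD14 (a proteasome deubiquitinase, 98.4). With 1 library behind each of these, there is no replicate check on them.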

How the data were processed

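WDR5 ChIP-seq peak lists of CHP-134 cells (3 DMSO, 3 compound) were analysed with the N-MYC lists of the same cells and the lists of IMR-32 as references. IgG libraries were not used here. Adapters had been trimmed with Cutadapt, reads aligned to hg19 with Bowtie2, and peaks called per library with MACS2 at a q-value of 0.05, by the authors; versions and the control used in calling were not given in the sources used here. The lists were deposited as narrowPeak files, in which the authors' column 7 is the fold enrichment of each peak (a ratio) and column 9 its −log10 q-value as MACS2 gave it. Neither read counts nor depth are in them, so the precision of each list is unknown, and folds were used only as percentiles within a list. Unequal depth or library quality would change list length.

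Peaks sharing at least 1 bp were merged into regions, and regions in at least 2 libraries served as reference sites. TSSs came from GENCODE release 44 on GRCh37 (basic transcripts, coding and lncRNA genes), and a site was named for the nearest TSS within 1 kb of its middle. Motifs were searched on both strands within 100 bp of the summit. Groups were taken from the labels and compared over libraries by two-sided exact permutation of group means. Scripts used numpy 2.4.6, pandas 2.3.3, scipy 1.17.1 and pysam 0.24.0 and were tested on simulated data, where all 12 known answers were recovered.

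Named sites were the study's PCR loci, all peaks of compound replicate 2, the 5 highest sites of each class (in all lists, in DMSO lists only, in compound replicates 1 and 3 only, in compound replicate 1 only) and members of 13 gene lists. The 15 and 20 highest sites, the lysosomal list, the 100 strongest peaks and the 100 of highest fold were added after the data were seen. The members and lists were chosen with earlier results of these data known. Alternatives were another overlap rule, stricter q-values, lists of equal length, other references, distances and windows, a replicate block and leaving out each library. Same-numbered libraries had correlations of -0.31, -0.20 and -0.11 over 10000 regions. List length affects these values, so they do not settle whether the libraries are paired. The numbers were not taken as pairs in the main tests. Some named sites are not reported here.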

Additional observations from a re-analysis of the deposited data

How the results depend on the processing

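Over 137 alternative settings of 15 results, 100 kept their direction or, for shares of sites and peaks, stayed within the 95% interval of the main value, 25 shares moved outside it and 12 differences changed sign. The 100 include the replicate block, which cannot change a difference of group means. For group differences the size was not judged, and some changed much in size. Group differences are compound minus DMSO. The share of the 100 strongest peaks with CACGTG differed by 57.3 percentage points. The gap ranged from 40.8 (200 strongest) to 66 (50 strongest) over the settings tried, and from 55.5 to 58.5 without 1 library. The exact permutation test gave p = 0.1 in each of these. It narrowed as more peaks were taken. Among the 401 strongest, CACGTG was at 31.7% and 30.9% of peaks in compound replicates 1 and 3, against 21.2%, 16.5% and 16.7% in DMSO. The gap in IMR-32 sites (-46.6 points) ranged from -55.8 to -39.3 without 1 library (p = 0.2 in the exact permutation test without DMSO replicate 1). It was -23.7 points with lists cut to at most 401 peaks and -31.0 for sites of either IMR-32 library (exact permutation test, p = 0.1 each). That cut does not make all lists equal in length, since compound replicate 2 held only 15 peaks and still entered the means. Differences near 0 changed sign. For peaks near a TSS the difference was -3.08 points with lists cut to at most 401 peaks and -0.860 within 2 kb. It ranged from -10.4 (without compound replicate 2) to 13.6 (without compound replicate 1). For overlap with N-MYC it was -13.4 points with 50% of both peaks (exact permutation test, p = 0.1), 2.64 points against N-MYC sites of the compound libraries and ranged from -11.7 to 12.8 without the same libraries. The number of peaks differed by -2565 without compound replicate 1 and by 415 without DMSO replicate 1, the CACGTG share over whole lists by 2.61 to 28.2 points and the number of genes by -2016 to -324. With lists cut to at most 401 peaks the genes differed by -158 (exact permutation test, p = 0.1), again with only 15 peaks in compound replicate 2. With the replicate block the differences were the same (-644 peaks, -46.6 points of IMR-32 sites, 57.3 points of CACGTG), and the smallest p of 3 pairs is 0.25. Over the listed regions, 0 of the 3 DMSO libraries correlated best with the compound library of their own number. List length affects these correlations, so they cannot show whether libraries of the same number belong together.

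DMSO sites listed in compound replicates 1, 2 and 3 came to 29.3%, 0.365% and 6.38% with an overlap of at least 50% of both peaks, to 31.7%, 0.238% and 5.19% of sites of any DMSO library, and to 50.8%, 1.81% and 20.5% of sites of all 3. With lists cut to at most 401 peaks they were 23.8%, 3.78% and 23.8%, where replicate 2 kept its 15 peaks. With a −log10 q-value of at least 3 replicate 1 listed 42.3%. Leaving out a DMSO library gave 47.3% to 49.5%, 1.11% to 1.72% and 14.1% to 20.1%. New peaks were 71.7% of compound replicate 1 with an overlap of 50% of the shorter peak, and 79.6%, 60% and 59.6% of replicates 1 to 3 with 50% of both. They were 71.6% and 67.8% of replicates 1 and 3 with lists cut to at most 401 peaks, and 86.5% and 43.9% against sites of at least 2 DMSO libraries. Where values moved, the cause was not tested beyond the fewer or narrower peaks each setting leaves. The lists give no depth, which limits every statement on an unlisted site.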

Other observations

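Next to MYCN, which is amplified in these cells, compound replicate 1 listed a dense run of weak peaks. In chr2:15000001-16000000, the megabase before the one that holds MYCN, it listed 38 WDR5 peaks, 32 of them new, at a median percentile of 0.410 among the new ones, and 27 of the 32 lay over 10 kb from a TSS. The DMSO libraries listed 9, 0 and 5 peaks there and the other compound libraries none. The N-MYC lists of the same cells held 1, 1 and 11 peaks in DMSO and 7, 2 and 18 under the compound. A second run lay in chr1:89000001-90000000, with 12 peaks in compound replicate 1, all new, at a median percentile of 0.678, and none in the other WDR5 libraries. MYCN itself had a WDR5 peak at percentiles of 0.102 and 0.180 in DMSO replicates 1 and 3 and 0.586 in compound replicate 1. No control library was used here, so the part of copy number in these peaks was not tested.

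The LAMP1 and HEXA sites, with E-boxes at the top of compound WDR5 lists, were also N-MYC sites. In the N-MYC lists LAMP1 stood at 99.6, 98.9 and 99.9 in DMSO and at 98.9, 82.2 and 99.9 under the compound. HEXA was at 84.3, 66.0 and 88.1 in DMSO and at 38.1 and 68.0 in compound replicates 1 and 3. Of the 7 conserved WDR5 loci, RPS6, CCT7 and RPL17 were listed by all 3 DMSO N-MYC libraries and by no compound N-MYC library. The other 4 were listed by compound N-MYC replicates 1 and 3, and SNHG15 and RPL35 by replicate 2 as well. SNHG15 stood at 89.7, 49.2 and 91.5 there, and the other loci ranked lower than in DMSO N-MYC. RNPS1 was at 96.3, 94.3 and 98.1 in DMSO and at 10.8 and 1.60 in compound replicates 1 and 3. EIF4G3 was at 97.7, 87.2 and 96.1 against 48.0 and 11.4. RPL35 was at 69.5, 70.2 and 78.2 against 0.178, 10.9 and 33.6 in compound replicates 1, 2 and 3.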
